A study of Rattus norvegicus with 22 samples.

Results

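The genes described here encode the interleukin-6 (IL-6) family of cytokines that signal through gp130, their receptors, and the 2 genes that stand next in the same pathway, Stat3 and Socs3. They were chosen by name as 3 ligands (Il6, Lif and Cntf), 4 receptor chains (Il6r, Il6st, Osmr and Lifr), the transcription factor Stat3 and the inhibitor Socs3. All 9 were in the count table of 17172 genes, and 8 of them were among the 12875 genes with enough counts to be tested. Il6 was the one that did not pass that filter.

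Cytokines of this family bind a receptor complex that contains gp130, the shared chain encoded by Il6st. The complex activates Janus kinases (JAKs), which phosphorylate STAT3, and STAT3 dimers then switch on target genes in the nucleus. One of these targets is Socs3, whose product binds gp130 and JAKs and shuts the signal down. In the brain the pathway is known for its part in the reaction of astrocytes to injury.

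The data came from adult male Sprague-Dawley rats. The TBI animals received a moderate lateral fluid percussion injury through a craniectomy over the right hemisphere. Sham animals had the craniectomy and the same time under isoflurane, without the percussion, so the controls of both days carry the surgery as well. The hippocampus of the injured side was collected 1 day later from 2 sham and 4 TBI rats, and 14 days later from 4 sham and 4 TBI rats. Stranded mRNA libraries were sequenced from bulk tissue, 1 library for each of the 14 labelled samples. The animal section of the methods gives another number of sham rats at day 14 than the labels, and the 4 labelled libraries were used.

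Total counts were between 15065540 and 23743703 per library. All 10 neuronal markers of the labelled tissue were detected in every library. One sham day 1 library stood apart, since its 8 choroid plexus markers summed to 8349 CPM, counts scaled to a common library size, against 7.42 in the other sham day 1 library. Sums of 1509 and 7482 CPM were found in TBI day 14 replicates 2 and 3, and the remaining 11 libraries were between 7.42 and 23.8. TBI day 14 replicates 2 and 3 had lower CPM than the other TBI day 14 libraries for Socs3, Stat3, Osmr, Il6r, Il6st and Lifr. This was not so for Lif or Cntf. For some members, values below are therefore also given with single ones of these libraries left out. In bulk tissue, a change in the number of cells of one type and a change in the RNA of each cell cannot be told apart.

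One day after injury, 4 of the 8 tested members were higher in TBI and 0 were lower at an adjusted p-value under 0.05 (edgeR quasi-likelihood test, Benjamini-Hochberg adjustment over all tested genes). They were Socs3, Stat3, Osmr and Lif. In the same comparison, 11.2% of all tested genes were called higher and 7.93% lower. At day 14, 2 members were higher, Socs3 and Stat3, and 0 were lower, where 4.07% of all tested genes were called higher and 0.365% lower. The median log2 fold change of the 8 members was 1.42 at day 1 and 0.47 at day 14, whereas the medians of all tested genes were -0.02 and -0.03. The TBI libraries were above the sham libraries without overlap for 5 of the 8 members at day 1 and for 3 at day 14, and below them for 0. Over all tested genes the shares without overlap were 16.7% above and 14.1% below at day 1, and 9.13% and 5.86% at day 14. At an unadjusted p under 0.05, 7 members passed at day 1 and 3 at day 14, where 34.4% and 13.3% of all tested genes did.

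**Figure D1:**
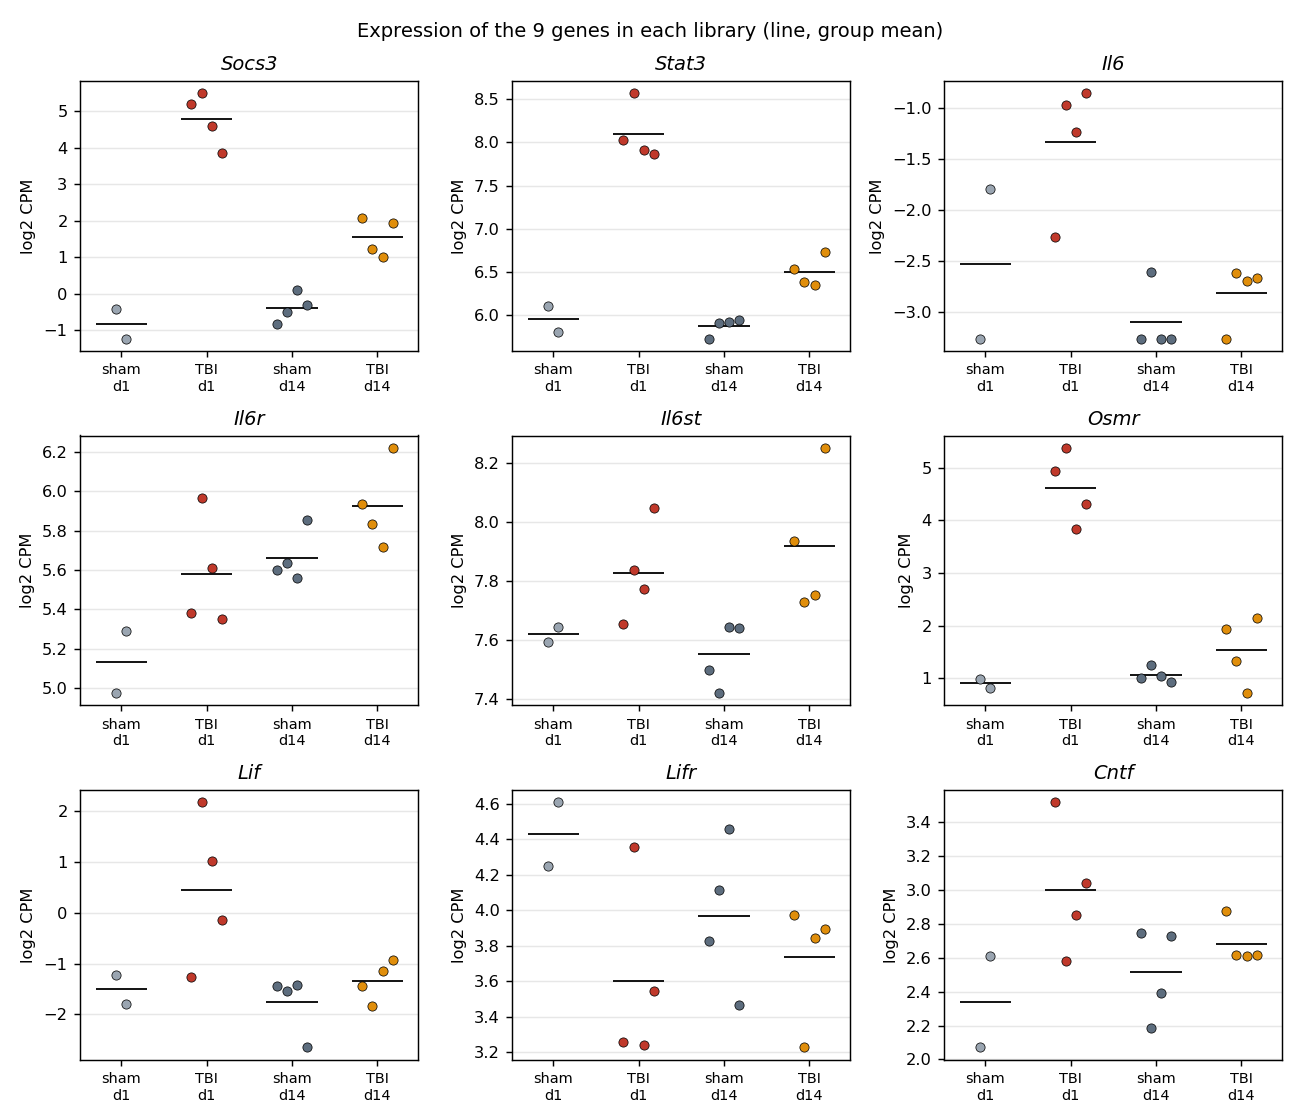
Each point is the log2 CPM (prior count of 2, vertical axis) of 1 gene in 1 library, with the 4 groups on the horizontal axis and a line at the group mean. Socs3, Stat3 and Osmr in the 4 TBI day 1 libraries lie above all 10 other libraries, whereas the Lif values of that group reach down to the sham level.

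Il6 encodes the founding cytokine of the family. Its counts were 0 and 4 in sham day 1, and 2, 10, 7 and 10 in TBI day 1. At day 14 they were 0, 1, 0 and 0 in sham and 0, 1, 1 and 1 in TBI. TBI day 1 replicates 2, 3 and 4 were thus the only ones of the 14 above 4 counts. Almost all other values were at or under 3 counts, so no fold change is given, and a change of Il6 at day 14 was not detectable at this depth. In a fit without the filter on low counts, the adjusted p of Il6 in edgeR was 0.26 for TBI day 1 against sham day 1 and 0.00614 against the 4 sham day 14 libraries.

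The 250 bases before the start of 2 ligand genes are shown, because Il6 and Cntf are the members whose sequence window begins at the outermost start of the gene. They were taken from RefSeq (GRCr8, both on the minus strand) and are written 5′ to 3′, with matches to the searched motifs in capitals. The windows are chr4:5894576-5894825 for Il6 and chr1:219314536-219314785 for Cntf.
Il6: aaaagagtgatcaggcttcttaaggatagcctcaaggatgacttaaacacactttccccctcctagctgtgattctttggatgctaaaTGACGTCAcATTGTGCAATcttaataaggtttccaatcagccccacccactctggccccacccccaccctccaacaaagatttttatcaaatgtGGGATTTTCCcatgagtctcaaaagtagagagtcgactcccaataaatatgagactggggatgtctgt
Cntf: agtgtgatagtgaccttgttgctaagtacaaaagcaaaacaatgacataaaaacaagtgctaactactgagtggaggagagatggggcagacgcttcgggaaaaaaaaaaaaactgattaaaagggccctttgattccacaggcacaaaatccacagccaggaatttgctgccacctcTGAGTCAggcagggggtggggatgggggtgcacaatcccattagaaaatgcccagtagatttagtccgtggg
The motifs CRE (TGACGTCA), C/EBP, NF-kB, AP-1 (TGANTCA) and STAT (TTCNNNGAA) were searched on both strands. C/EBP matched as ATTGTGCAAT, where the middle pair of letters was free, and NF-kB as GGGATTTTCC, where the fifth letter was free. The Il6 window held the first 3, with CRE 162 to 155, C/EBP 153 to 144 and NF-kB 68 to 59 bases before the start, and the 3 matches did not overlap. The Cntf window held AP-1, 72 to 66 bases before the start. Of 33469 windows of this length in the RefSeq table, 1.59% held CRE, 0.406% C/EBP, 0.314% NF-kB, 6.34% AP-1 and 7.67% STAT. STAT letters were not in either window. Of the other members, 6 have windows that start inside the gene, which are not shown, and Lif is named only.

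Lif encodes leukemia inhibitory factor, a ligand that pairs LIFR with gp130. Its counts were 6 and 4 in sham day 1, and 6, 109, 42 and 18 in TBI day 1. Replicate 2 was the highest of the TBI day 1 group, and replicate 1 (0.311 CPM) lay between the sham libraries (0.184 and 0.323 CPM), so the groups overlapped. The log2 fold change was 2.88 (SE 0.909, n = 2 sham and 4 TBI, adjusted p = 0.0389). At day 14 the counts were 4, 4, 5 and 1 in sham and 4, 3, 7 and 8 in TBI, and the log2 fold change was 0.56 (SE 0.822, adjusted p = 0.886).

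The day 1 call for Lif depended on single libraries. Without TBI day 1 replicate 2 its log2 fold change was 2.00 (adjusted p = 0.088), and without the sham day 1 library rich in choroid plexus markers it was 3.31 (adjusted p = 0.0824). Lif kept its call in 7 of the 14 fits that each left out 1 library, and lost it with limma-voom (2.31, adjusted p = 0.14). Against the 4 sham day 14 libraries, the log2 fold change of TBI day 1 was 3.16 (SE 0.722, adjusted p = 0.00255), the groups did not overlap, and the call held in 14 of 14 such fits.

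Cntf encodes ciliary neurotrophic factor, a cytokine of astrocytes and Schwann cells. Its counts were 76 and 130 in sham day 1, and 219, 145, 155 and 182 in TBI day 1. In CPM, TBI day 1 replicate 2 (5.89 CPM) lay just below the higher sham library (5.99 CPM). The log2 fold change was 0.68 (SE 0.276, adjusted p = 0.0942), with a 95% interval from 0.09 to 1.27. With all 6 sham libraries as one baseline, the day 1 value was 0.57 and passed the test (adjusted p = 0.037). At day 14 the range was 74 to 120 counts in sham and 103 to 121 in TBI, and the log2 fold change was 0.15 (SE 0.222, adjusted p = 0.886).

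Osmr encodes the oncostatin M receptor, which forms a complex with gp130. Its counts were 35 and 36 in sham day 1, against 589, 1026, 309 and 444 in TBI day 1. At day 14 they were 29, 38, 36 and 33 in sham and 56, 41, 31 and 82 in TBI. Every TBI day 1 library was far above all sham libraries, while the day 14 groups overlapped. Expression was 15.0-fold higher at day 1 (log2 fold change 3.90, SE 0.485, adjusted p = 8.9e-05). At day 14 the log2 fold change was 0.59 (SE 0.357, adjusted p = 0.573), with a 95% interval from -0.17 to 1.35. Without TBI day 14 replicate 3 it was 0.83. Osmr was called at day 14 in 0 of 14 fits that left out 1 library.

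Osmr was the receptor chain that passed the test at day 1, and the 3 others did not. Il6st, which encodes gp130 itself, had 193 and 199.9 CPM in sham day 1, and 201, 229, 219 and 264 CPM in TBI day 1. The TBI libraries were above the sham libraries by a small margin, with a log2 fold change of 0.21 (SE 0.160, 95% interval -0.13 to 0.56, adjusted p = 0.367). At day 14 Il6st had 181, 171, 199.9 and 199 CPM in sham and 245, 212, 215 and 304 CPM in TBI. These groups did not overlap either, and the log2 fold change was 0.38 (SE 0.130, 95% interval 0.10 to 0.66), with an unadjusted p of 0.0109 and an adjusted p of 0.156 in edgeR.

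Il6r encodes the chain that binds IL-6. Its values were 31.4 and 39.0 CPM in sham day 1, and 41.7, 62.5, 48.8 and 40.8 CPM in TBI day 1. The groups did not overlap, although TBI replicate 4 was close to the higher sham library. The log2 fold change was 0.46 (SE 0.192, 95% interval 0.05 to 0.87, adjusted p = 0.104). The sham day 14 libraries had 47.1 to 57.8 CPM, and TBI day 1 against those controls gave -0.07 (SE 0.153, adjusted p = 0.751). The 2 sham groups themselves differed by -0.53 (day 1 minus day 14, adjusted p = 0.0679), so the day 1 value for Il6r varied with the controls that were used. At day 14 TBI had 52.4 to 74.5 CPM, and the log2 fold change was 0.27 (SE 0.154, adjusted p = 0.528).

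Lifr, the LIF receptor, was the member with a negative log2 fold change at both days. It had 18.9 and 24.3 CPM in sham day 1, and 9.44, 20.4, 9.35 and 11.5 CPM in TBI day 1. TBI replicate 2 lay between the sham libraries, and the other TBI libraries were below both. The log2 fold change was -0.77 (SE 0.321, adjusted p = 0.106), and without replicate 2 it was -1.09 and passed the test (adjusted p = 0.0162). At day 14 the values were 10.9 to 21.9 CPM in sham and 9.26 to 15.6 CPM in TBI, and the log2 fold change was -0.25 (SE 0.271, adjusted p = 0.825).

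Stat3 encodes the transcription factor that gp130 receptors activate. Its counts were 1279 and 1209 in sham day 1, and 5021, 9337, 5252 and 5219 in TBI day 1. At day 14 they were 810, 1003, 1125 and 1133 in sham and 1399, 1426, 1645 and 2009 in TBI. TBI libraries were above all sham libraries at both days. Expression was 4.47-fold higher at day 1 (log2 fold change 2.16, SE 0.209, adjusted p = 1.21e-05) and 1.54-fold higher at day 14 (log2 fold change 0.63, SE 0.154, adjusted p = 0.0289).

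The day 14 call for Stat3 was close to the threshold. It was lost in 6 of 14 fits that left out 1 library, namely without any one of sham day 14 replicates 1 to 4 or without TBI day 14 replicate 1 or 4, where the log2 fold change was 0.54 to 0.65 and the adjusted p 0.065 to 0.12. Without TBI day 14 replicates 2 or 3, the libraries with choroid plexus markers, it was 0.67 and 0.69 and passed the test. The day 1 value was between 1.98 and 2.32 in the 14 fits and was called in each.

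Socs3, the feedback inhibitor, had the largest log2 fold changes of the members at both days. Its counts were 12 and 7 in sham day 1, against 703, 1104, 523 and 318 in TBI day 1. At day 14 they were 7, 10, 18 and 13 in sham and 62, 38, 38 and 71 in TBI. The TBI libraries were above all sham libraries at both days, with the day 14 TBI libraries well below those of day 1. Expression was 61.8-fold higher at day 1 (log2 fold change 5.95, SE 0.591, 95% interval 4.69 to 7.21, adjusted p = 1.42e-05). This value ranked 51 among the 12875 tested genes. At day 14 it was 4.27-fold higher (log2 fold change 2.09, SE 0.417, 95% interval 1.21 to 2.98, adjusted p = 0.00647). With limma-voom, the method of the study, the day 14 log2 fold change was 2.01 and the call was lost (adjusted p = 0.215).

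**Figure D2:**
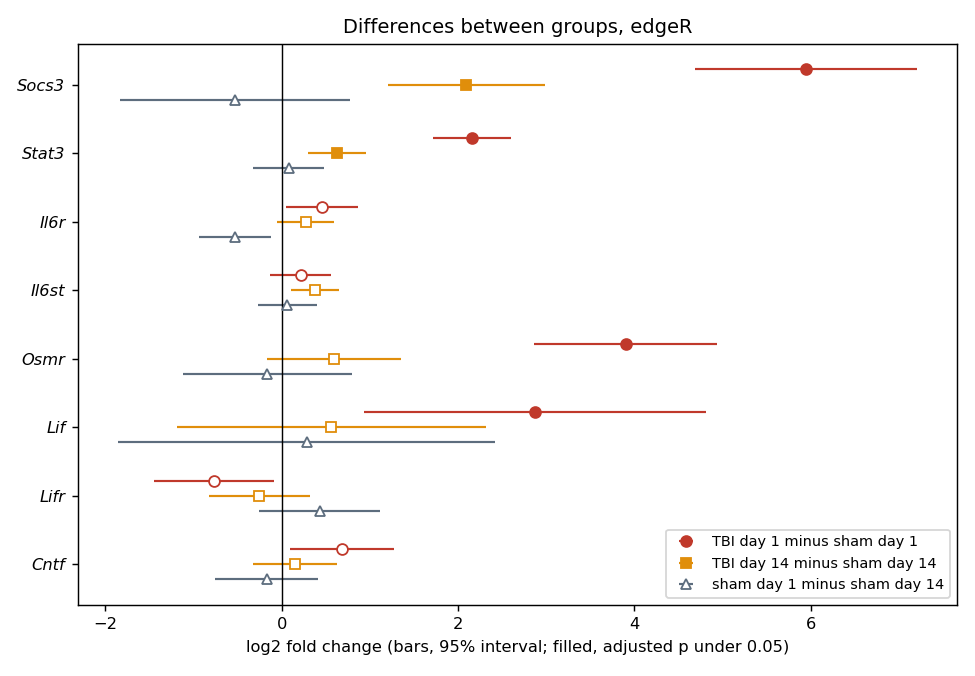
Log2 fold changes of the 8 tested genes (horizontal axis) with 95% intervals, for TBI against sham at day 1 and at day 14 and for the sham groups of the 2 days; filled symbols have an adjusted p under 0.05 in edgeR. Socs3, Stat3, Osmr and Lif are filled at day 1, Socs3 and Stat3 at day 14, and 0 members in the comparison of the sham groups.

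The TBI effect at day 1 was compared with that at day 14 by a contrast of both differences. It was larger at day 1 for 3 members. The difference was 3.86 for Socs3 (SE 0.703, adjusted p = 0.0084), 3.31 for Osmr (SE 0.575, adjusted p = 0.00731) and 1.53 for Stat3 (SE 0.249, adjusted p = 0.00483) on the log2 scale. Over all tested genes, 2.24% were called with a higher and 1.44% with a lower effect at day 1. With limma-voom, Stat3 kept the call, whereas Socs3 (3.83, adjusted p = 0.11) and Osmr (3.31, adjusted p = 0.0521) did not. For Lif the difference was 2.31 (SE 1.24, adjusted p = 0.328), with an interval from -0.33 to 4.95.

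Since sham day 1 holds 2 rats, TBI day 1 was also compared with the 4 sham day 14 rats, which are the controls of the day 14 comparison too. The same 4 members were higher and 0 were lower, where 25% of all tested genes were called higher and 21% lower. The log2 fold changes were 5.42 for Socs3 (SE 0.419), 3.74 for Osmr (SE 0.359), 3.16 for Lif and 2.24 for Stat3 (SE 0.160), and the adjusted p of Socs3 was 2.7e-07. Between the sham groups, 0 of 8 members passed the test in edgeR, with 1 at an unadjusted p under 0.05 (Il6r), 0 with limma-voom and 1 with DESeq2. In that comparison 11.3% of all tested genes were called higher at day 1 and 7.88% lower.

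**Figure D3:**
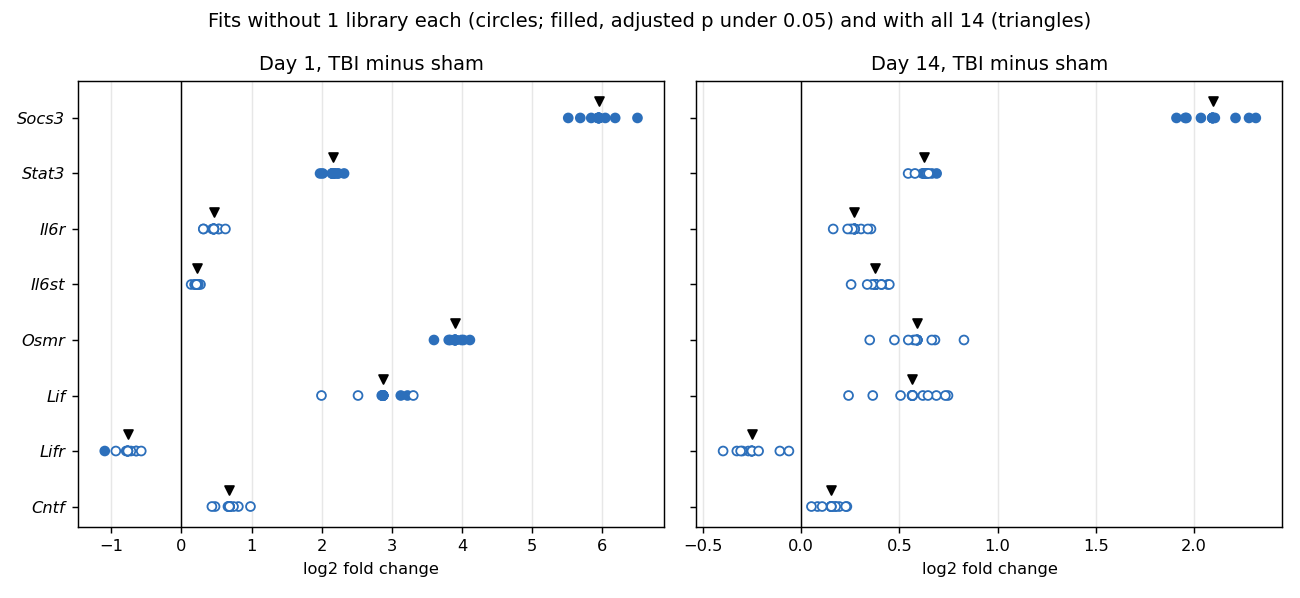
Log2 fold changes of TBI against sham (horizontal axis) for each tested gene, with 1 circle for each of the 14 fits that leave out 1 library and a triangle for the fit with all libraries; filled circles have an adjusted p under 0.05. Socs3, Stat3 and Osmr are filled throughout at day 1, where Socs3 stays between 5.51 and 6.50, and Stat3 at day 14 has open and filled circles.

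The TBI day 1 rats varied among themselves. Replicate 2 had the highest CPM of the 4 for 6 of the 9 members, namely Socs3, Stat3, Il6r, Osmr, Lif and Lifr. For Lif it had 4.42 CPM, against a median of 0.806 in the others, and for Osmr 41.6 against 19.9. Without replicate 2 the day 1 log2 fold changes were 5.69 for Socs3, 3.60 for Osmr and 1.98 for Stat3, and all 3 passed the test. Without the sham day 1 library rich in choroid plexus markers they were 6.50, 3.99 and 2.32, and passed as well.

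Markers of several cell types differed between the same groups. Over all tested genes, 11.2% were called higher and 7.93% lower at day 1, and 4.07% and 0.365% at day 14. Of 6 neutrophil markers 5 were tested, and 4 of them were higher in TBI day 1, S100a8, S100a9, Csf3r and Cxcr2. The 6 summed to 4.01 to 9.81 CPM in the sham and 29.6 to 79.0 CPM in the TBI libraries of day 1, and to 5.11 to 7.24 CPM and 14.9 to 27.6 CPM in those of day 14. Csf3r made up most of the day 14 sums, with a mean of 18.5 CPM in TBI against 5.33 in sham, and was the one neutrophil marker called at day 14, where S100a8 had means of 0.0775 CPM in TBI and 0.101 in sham and Cxcr2 0.0380 and 0.0272. The highest sum was that of TBI day 1 replicate 2. Between 0 and 4 of the 6 were at 0 in a sham day 14 library, among them Cxcr2 in 3 of 4, and none of the 6 was at 0 in TBI day 1. Mpo, the untested one, had 1 to 2 counts in TBI day 1 and 3 and 6 in sham day 1. Of 4 monocyte markers 2 were higher in TBI day 1, Ly6c and Plac8. The sums were 85.4 to 126 CPM there and 59.3 to 76.2 in the sham libraries of both days. Vcan, which was not called in edgeR, made up most of these sums, with means of 85.2 CPM in TBI day 1 and 59.1 in sham day 1. In TBI day 1 the means of Ly6c and Plac8 were 1.36 and 2.89 CPM. In TBI day 14 the monocyte sums were 49.2 to 86.6 CPM and 0 of the 4 were called in edgeR, also with 0 at an unadjusted p under 0.05. For 6 microglial markers the sums were 198 to 345 CPM (sham) and 391 to 471 CPM (TBI) at day 1, where 2 rose (Aif1 and Itgam) and 2 fell (P2ry12 and Tmem119). The mean of Itgam was 19.8 CPM in sham and 123 in TBI at day 1, and that of Aif1 16.9 and 42.3. Those of P2ry12 were 24.7 and 13.4 CPM, and those of Tmem119 21.1 and 5.65, so the higher sums did not hold for each marker. At day 14 the sums were 233 to 308 CPM (sham) and 566 to 1037 CPM (TBI), and 5 of the 6 rose. Of 10 neuronal markers, 5 were lower at day 1 (Gad1, Neurod2, Prox1, Rbfox3 and Slc17a7), with sums of 12600 and 15830 CPM in sham and 4818 to 10330 CPM in TBI. At day 14, 0 were called in edgeR and 0 had an unadjusted p under 0.05. The sums of sham day 14 were 9109 to 11490 CPM, which overlapped those of TBI day 1. Against sham day 14, 5 markers were lower in TBI day 1 (Gad1, Neurod2, Slc17a7, Syt1 and Wfs1) and 0 higher. Between the sham groups, 3 were higher at day 1 (Nrgn, Rbfox3 and Snap25) and 1 was lower (Slc17a7). The day 1 result for single neuronal markers thus varied with the controls that were used. Of 6 astrocyte markers, 0 were higher and 1, Gjb6, was lower at day 1. The part of these cells in the member values was not tested.

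The other genes of the pathway were taken from 5 lists. Beside their counts stand the shares of all tested genes, 11.2% higher and 7.93% lower at day 1, and 4.07% and 0.365% at day 14. An unadjusted p under 0.05 in edgeR was found for 34.4% of all tested genes at day 1 and 13.3% at day 14. Among 10 further gp130 cytokines and receptors, 9 were tested, of which 3 were higher and 1 was lower at day 1. At day 14, 0 were called in edgeR, limma-voom or DESeq2, and 2 had an unadjusted p under 0.05. Clcf1, a ligand of the CNTF receptor, had counts of 23 and 4 in sham day 1 and 605, 1144, 565 and 501 in TBI day 1, which is 5.50 higher on the log2 scale (SE 0.684, adjusted p = 8.9e-05). Its sham day 14 counts of 119, 65, 35 and 73 were higher than those of sham day 1 (adjusted p = 0.0129), and against them TBI day 1 was 2.85 higher on the log2 scale (SE 0.420).

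Osm, the ligand of OSMR, had counts of 5 and 2 in sham day 1 and 11, 73, 17 and 19 in TBI day 1, again with replicate 2 on top. Its day 1 log2 fold change was 2.84 (SE 0.766, adjusted p = 0.0187). At day 14 the Osm counts were 6, 4, 6 and 6 in sham and 17, 13, 15 and 10 in TBI. In CPM those TBI libraries were above sham without overlap, as were 9.13% of all tested genes, and Osm was not called in edgeR. Il11 had 11 and 5 counts in sham day 1 and 50, 186, 141 and 148 in TBI day 1, and was 3.82 higher on the log2 scale (SE 0.561, adjusted p = 0.000339). The median of this list was -0.03 at day 1.

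Among the 10 JAK kinases and further STAT factors, all tested, 5 were higher and 0 lower at day 1, and the list had a median of 0.57 on the log2 scale. The log2 fold change was 1.23 for Jak3 (SE 0.339), 0.93 for Stat5a (SE 0.273), 0.73 for Jak2 (SE 0.164) and 0.65 for Stat6 (SE 0.188). Without sham day 1 replicate 1 the count was 3, and without replicate 2 it was 1. At day 14, 1 was higher and 0 lower, and the median was 0.10. The number called at day 14 was 0 without sham day 14 replicate 2 or 4 or TBI day 14 replicate 4, and 3 without either sham day 1 library.

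Of 15 inhibitors other than Socs3, 14 were tested. At day 1, 2 of them were higher and 0 lower, beside 11.2% and 7.93% of all tested genes. The 2 were the phosphatase genes Ptpn6 and Ptpn2. Ptpn6 encodes SHP-1, a phosphatase of blood cells and microglia, and had at most 271 counts in the sham and at least 1086 in the TBI libraries of day 1. Its log2 fold change was 2.16 at day 1 (SE 0.201, adjusted p = 8.93e-06) and 1.82 at day 14 (SE 0.153, adjusted p = 8.56e-06), the single inhibitor called at that day. Ptpn2 was called at day 1 (0.83, SE 0.162, adjusted p = 0.00279). None of the 5 other SOCS genes tested nor Cish passed the test at either day. Cish was called higher in both sham day 1 and TBI day 1 than in sham day 14, so its day 1 result varied with the controls that were used. Adam10 and Adam17, the proteases that release the IL-6 receptor from the membrane, were not called against sham of the same day in edgeR, limma-voom or DESeq2. Adam17 had an unadjusted p under 0.05 in edgeR at both days. It was called higher in TBI day 1 against sham day 14 in edgeR.

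Of 20 textbook targets of STAT3, 19 were tested, and 14 were higher and 0 lower at day 1. Their log2 fold changes had a median of 2.07 there and of 0.67 at day 14. At the later day, 9 were higher and 1, Vegfa, was lower (log2 fold change -0.65, SE 0.159 and adjusted p = 0.0267). All 9 had also been higher at day 1: Bcl3, Cebpd, Gfap, Icam1, Lcn2, Myc, Serpina3n, Timp1 and Vim. These genes have other regulators too, and several are widely used marks of reactive astrocytes.

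Serpina3n, a serine protease inhibitor of reactive astrocytes, had the largest change of the list. Its counts were 9 and 6 in sham day 1 and 5091, 9412, 4248 and 5388 in TBI day 1, which is 9.47 higher on the log2 scale (SE 0.426, adjusted p = 1.18e-08). At day 14 it had 1 to 4 counts in sham and 12 to 17 in TBI, so the groups were apart but close to the floor of 3 counts. Lcn2, which encodes lipocalin 2, had 31 and 91 counts in the sham libraries and at least 7648 in each TBI library of day 1 (log2 fold change 7.25, SE 0.633). Timp1, an inhibitor of matrix proteases, had a log2 fold change of 6.31 (SE 0.476), Bcl3, a partner of NF-kB, 4.92 (SE 0.411), and Mt2A, a metallothionein, 4.23 (SE 0.588) at day 1.

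**Figure D4:**
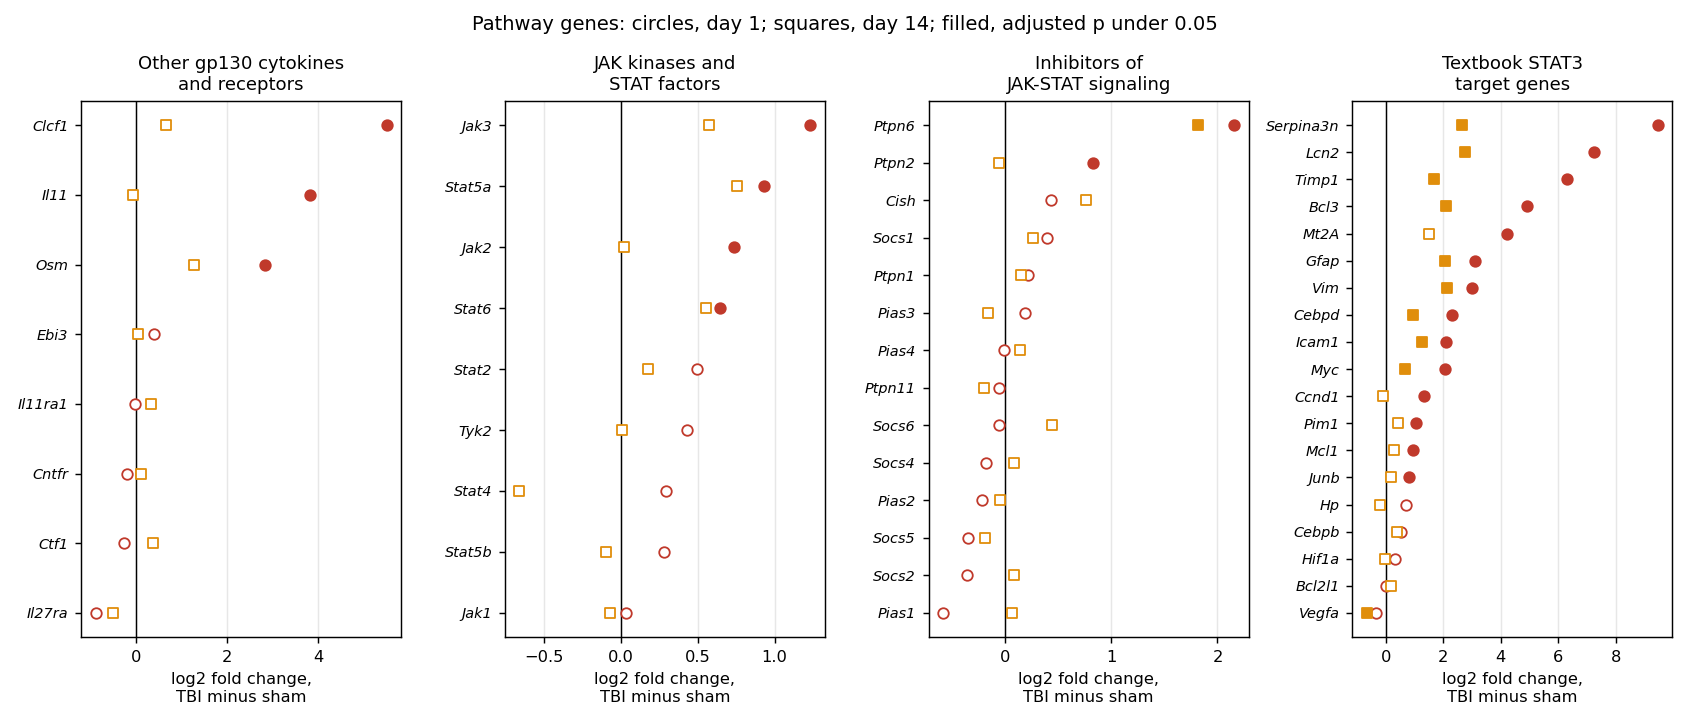
Log2 fold changes of TBI against sham (horizontal axis) for genes of 4 pathway lists, with circles for day 1 and squares for day 14; filled symbols have an adjusted p under 0.05 in edgeR. Of the STAT3 targets 14 are filled at day 1 and 10 at day 14, whereas 2 of the inhibitors are filled at day 1.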

How the data were processed

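Values came from 14 libraries of rat hippocampus, grouped by their labels. The authors aligned single-end reads to rn5 with STAR 2.4.2a and made the deposited gene counts with featureCounts 1.5.0 on UCSC genes, with a strand setting not given in the sources used here. All deposited values were whole numbers that had not been normalized, and 0 columns belonged to no sample. H3K4me3 peak lists were not used here, since no gene annotation of their build, rn5, was at hand. The paper itself shows Socs3 and Bcl3 among its examples of H3K4me3 change at upregulated genes at day 1.

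Counts were tested in R 4.3.3 with edgeR 4.0.16, using TMM factors, the default filter by group, 1 mean per group over all 14 libraries, a quasi-likelihood fit and two-sided p-values with Benjamini-Hochberg adjustment over 12875 genes at a threshold of 0.05. SE values were derived from the fold change and its F statistic. Log2 CPM used a prior count of 2. Replicates differed by more than counting noise in every group (chi-square per degree of freedom 12.6 to 166). Total counts per library, from 15065540 to 23743703, set the counting precision. The sources do not say which rats shared a cage or surgery day, so p-values measure the spread between these libraries.

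Members and lists were chosen with earlier results of these data known. All 9 members were given in full. Some list genes are counted but not reported here. From each pathway list, at most 5 called genes with the largest changes were given with values. Beyond these, Vegfa was given with values as the 1 STAT3 target called lower at day 14. Other called genes are named, as are a few uncalled ones with an unadjusted p under 0.05 or in small families. These further genes were chosen after their values were seen. For 5 members, the 3 genes with the smallest root-mean-square difference of centred log2 CPM over 14 libraries were also named. Alternatives were limma-voom (limma 3.58.1), DESeq2 1.42.0, median-of-ratios factors, a minimum of 10 counts in each library, no count filter, a replicate block, only the groups compared, all 6 sham libraries as 1 baseline, and each library left out. Without a sham day 1 library, the remaining one was assumed to vary like the other groups. Tests were checked on simulated data in which every gene had the same spread between libraries. That check does not cover differences such as those between the real sham day 1 libraries. Promoter windows were RefSeq GRCr8, and figures were drawn with matplotlib 3.10.9.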

Additional observations from a re-analysis of the deposited data

Results flagged for a closer look

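The effect of TBI differed between day 1 and day 14 for 11 of 24 named genes tested (contrast of the 2 differences, edgeR, adjusted p under 0.05). The named genes that are not members were chosen for the size of their change, which was larger at day 1 for each of them, so their count and direction are a description only. Of these, 3 were members, with differences of 3.86 for Socs3, 1.53 for Stat3 and 3.31 for Osmr on the log2 scale. Among the further gp130 ligands the difference was 4.85 for Clcf1 (adjusted p = 0.00429) and 3.88 for Il11 (adjusted p = 0.00774). Among the STAT3 targets it was 6.82 for Serpina3n, 4.62 for Timp1, 4.48 for Lcn2, 2.83 for Bcl3 and 2.73 for Mt2A, with adjusted p between 0.000413 and 0.0393. For the phosphatase gene Ptpn2 it was 0.89 (adjusted p = 0.029). Both differences of Clcf1 use sham groups that themselves differed for this gene.

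In groups of 4 libraries, 1 library lay far from the other 3 in 6 of 73 groups, where chance gives about 1 in 20. Stat3 was 5.73 log2 CPM in sham day 14 replicate 1, against 5.92 to 5.95 in the others, and Jak2 was 5.76 in the same library, against 5.41 to 5.43. Lif was -2.65 in sham day 14 replicate 4, a library with 1 count, against -1.54 to -1.42. Cntf was 2.87 in TBI day 14 replicate 1, against 2.61 to 2.62, and Bcl3 was 3.14 in that library, against 2.38 to 2.50. Il11 was 1.43 in TBI day 1 replicate 1, against 2.72 to 2.94.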

How the results depend on the processing

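Of 338 member values at day 1 or day 14 under the alternatives, 0 changed sign. With at least 10 counts in every sample, which removes Socs3 and Lif, 2 members were called at day 1, 1 at day 14, 2 for TBI day 1 against sham day 14, and 1 of the further gp130 genes at day 1. With limma-voom, 1 member was called at day 14 and 1 for the difference between days. With DESeq2, 1 was called between the sham groups and 3 JAK and STAT genes at day 14, where median-of-ratios factors and the filter of 10 counts each gave 2. Leaving out each library in turn, 3 to 4 members were called at day 1, 1 to 2 at day 14, 3 for the difference, 4 to 6 for TBI day 1 against sham day 14, and 0 to 1 between the sham groups. For the lists, which were run this way after seeing the data, the ranges at day 1 and day 14 were 3 to 4 and 0 to 1 for gp130 genes, 1 to 6 and 0 to 3 for JAK and STAT genes, 2 to 3 and 1 for inhibitors, 0 and 0 for shedding, and 11 to 16 and 8 to 11 for STAT3 targets. Only uncalled values reversed. Il6r for TBI day 1 against sham day 14 ranged from -0.21 to 0.00895, and was also above 0 without TBI day 1 replicate 1 (6.52e-05) and sham day 14 replicate 4 (0.00195). Between the sham groups the ranges were -0.0800 to 0.22 for Stat3, -0.14 to 0.64 for Lif (-0.0380 without sham day 14 replicate 4) and -0.47 to 0.0784 for Cntf, all reversed without sham day 1 replicate 1. With only the groups compared, all-gene calls at day 1 were 557 higher and 94 lower, against 1437 and 1021 with all libraries, and at day 14 they were 903 and 205, against 524 and 47. There, Lif had an adjusted p of 0.179 at day 1. The cause was not tested.

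The replicate numbers were not taken to pair the samples, since not every pair was above 0.1. That rule was a choice and cannot show that same-numbered samples shared no block. Of 18 same-numbered pairs, 5 correlated above 0.1 in their deviations from the group means (-0.35 to 0.24). Within a day it was 4 of 6 pairs (-0.0383 to 0.24), with replicates 2, 3 and 4 of the day 14 groups at 0.131, 0.24 and 0.115 and replicate 1 at -0.0383. With the replicate block, 3 members were called at day 1 and 1 at day 14, where Stat3 had a log2 fold change of 0.62 (adjusted p = 0.0611) and Lif at day 1 had 2.66 (adjusted p = 0.0761).

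Il6 and Lif, with few counts, are limited by depth, and day 1 comparisons by 2 sham rats.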

Other observations

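Genes whose levels ran closest to the members over the 14 libraries were found by the root-mean-square difference of centred log2 CPM among 12867 other tested genes. For Socs3 they were Csf2rb (0.487), the shared receptor chain of the GM-CSF family, Hspb1 (0.534), a small heat shock protein, and FAM187A (0.561), where Socs3 itself had an SD of 2.34 over the libraries. Hspb1 had log2 fold changes of 5.87 at day 1 and 1.53 at day 14. For Stat3, with an SD of 0.968, they were Myd88 (0.205), the adaptor of Toll-like and interleukin-1 receptors, PVR (0.237) and Hspb8 (0.244). For Osmr, with an SD of 1.68, they were Steap4 (0.350), Mt1a (0.423) and Msn (0.453), which encodes moesin. Steap4 had log2 fold changes of 3.99 at day 1 and 0.51 at day 14.

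For the receptor chains with smaller changes, the distances were nearer to their own spread. Il6st, with an SD of 0.219, ran closest to Sdf4 (0.109), Irf2 (0.113) and Wbp1l (0.134), and Lifr, with an SD of 0.465, to Nr2c2 (0.175), Myo5a (0.197) and Cmtm4 (0.208). Lifr and these 3 genes had negative log2 fold changes at day 1, of which that of Cmtm4 was -1.06 and that of Nr2c2 -0.63. Among pairs of members, the smallest such difference was 0.277, between Il6r and Il6st. It was larger than the SD of Il6st (0.219), so it reflects how little these genes varied and does not show that they ran together.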
